A study of Mus musculus with 6 samples.

Results

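The 34 genes described here mainly encode enzymes that make fatty acids or assemble them into triglyceride. A lipid droplet coat gene, a lipase of triglyceride breakdown and a transcription factor are also among them. The 34 were chosen by symbol from a list. It runs from the enzymes supplying the building blocks, through desaturation and elongation, to the acyltransferases that close the triglyceride molecule. All 34 were among the 17256 genes of the deposited expression table. The table holds RNA sequencing of antrum epithelium (the antrum is the distal part of the stomach) of C57BL/6 mice in which atrophic gastritis, a loss of gastric glands with inflammation, had been induced. Both groups carried the same injury: MNNG, an alkylating carcinogen, and a drug spelled Ranitine in the labels, given over 20 weeks. The PEEPA-P5 group (3 libraries) then had PEEPA-P5, known here by this code name alone, by gavage for 2 weeks, and the vehicle group (3 libraries) had vehicle for 2 weeks. No uninjured mice are among these libraries, and neither the age nor the sex of the mice is stated in the labels. Since no label ties the 3 libraries of a group to different mice, each p-value rests on variation among libraries, which may not be variation among mice.

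New fatty acids are built in the cytosol from acetyl-CoA. ATP citrate lyase and acetyl-CoA synthetase supply acetyl-CoA, acetyl-CoA carboxylase turns it into malonyl-CoA, malic enzyme supplies NADPH, and fatty acid synthase strings the units into palmitate. Acyl-CoA synthetases activate free fatty acids, and elongases and desaturases of the endoplasmic reticulum lengthen the chain and introduce double bonds. A series of acyltransferases attach the acyl groups to a glycerol backbone, and lipins act between these steps as phosphatidate phosphatases. SREBP-1c, encoded by Srebf1, and ChREBP, encoded by Mlxipl, are the transcription factors best known for driving these genes in liver and fat.

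Total expected counts were 16494806 to 16903559 in PEEPA-P5 libraries and 16388852 to 16833291 in vehicle libraries. The epithelial gene Epcam had 264, 280 and 282 CPM (counts scaled to library size with TMM factors) in PEEPA-P5 libraries, against 249, 230 and 184 CPM in vehicle libraries. Pdx1, a transcription factor of the antrum and duodenum, had 54.2, 60.6 and 77.8 CPM in PEEPA-P5 libraries and 53.8, 45.5 and 32.9 CPM in vehicle libraries. Gast, which encodes the antral hormone gastrin, had 1460, 1004 and 48.0 CPM in PEEPA-P5 libraries and 1859, 1219 and 135 CPM in vehicle libraries, so the library numbered 3 of each group stood far below the others. These tissue genes were picked after their values were seen. PEEPA-P5 library 3 also had the lowest value of all 6 libraries for all 10 fibroblast markers and for all 9 tested endothelial markers. Vehicle library 3 had the highest value for all 10 parietal cell markers and all 5 chief cell markers. Both libraries numbered 3 therefore stand apart from the rest, in different ways, and the counts of positive log2 differences and, where printed, of unadjusted p under 0.05 over the members and over the pathway and cell marker lists are given with and without them. In bulk tissue, fewer cells of a type and less RNA per cell cannot be told apart.

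Of the 34 members, 33 passed the filter on low counts. Elovl3, an elongase best known from brown fat and skin, never exceeded 1 count and was not tested. No member passed an adjusted p of 0.05 in edgeR's quasi-likelihood test with Benjamini-Hochberg adjustment, where the smallest adjusted p of any gene was 0.412 and 0 of 13071 genes (0%) passed. Without adjustment, 1576 genes lay under 0.05 in that test. limma-voom also called 0 genes, and DESeq2 called 101 of 12810 genes (0.788%), none of them a member. What follows is therefore a description of levels and of differences that did not pass the adjusted test.

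Most members stood higher in PEEPA-P5 libraries by a small amount. The log2 difference, PEEPA-P5 minus vehicle, was positive for 24 of 33 tested members (72.7%), beside 49.4% of all tested genes, and its median was 0.12 over members and -0.0047 over all tested genes. On the log2(TPM + 1) scale, which fixes the sum of each library, 18 of 33 were positive. Their median there was 0.05, while the median of all genes moved to -0.08. The share of all genes with a positive value is not given on that scale, here or for the lists below. At an unadjusted p under 0.05, 5 members stood higher in PEEPA-P5 libraries (15.2%, beside 5.92% of all tested genes) and 1 stood lower (3.03%, beside 6.14%). The 5 were Dgat1, Me1, Mogat2, Acsl3 and Scd1, and the 1 was Agpat3. In 4 members, namely Me1, Acsl3, Dgat1 and Agpat2, all 3 PEEPA-P5 libraries lay above all 3 vehicle libraries in CPM (12.1%, beside 9.74% of all tested genes). In Agpat3 all 3 lay below (3.03%, beside 10.7%). Those shares of members whose groups do not overlap are near, or below, those of all genes.

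**Figure D1:**
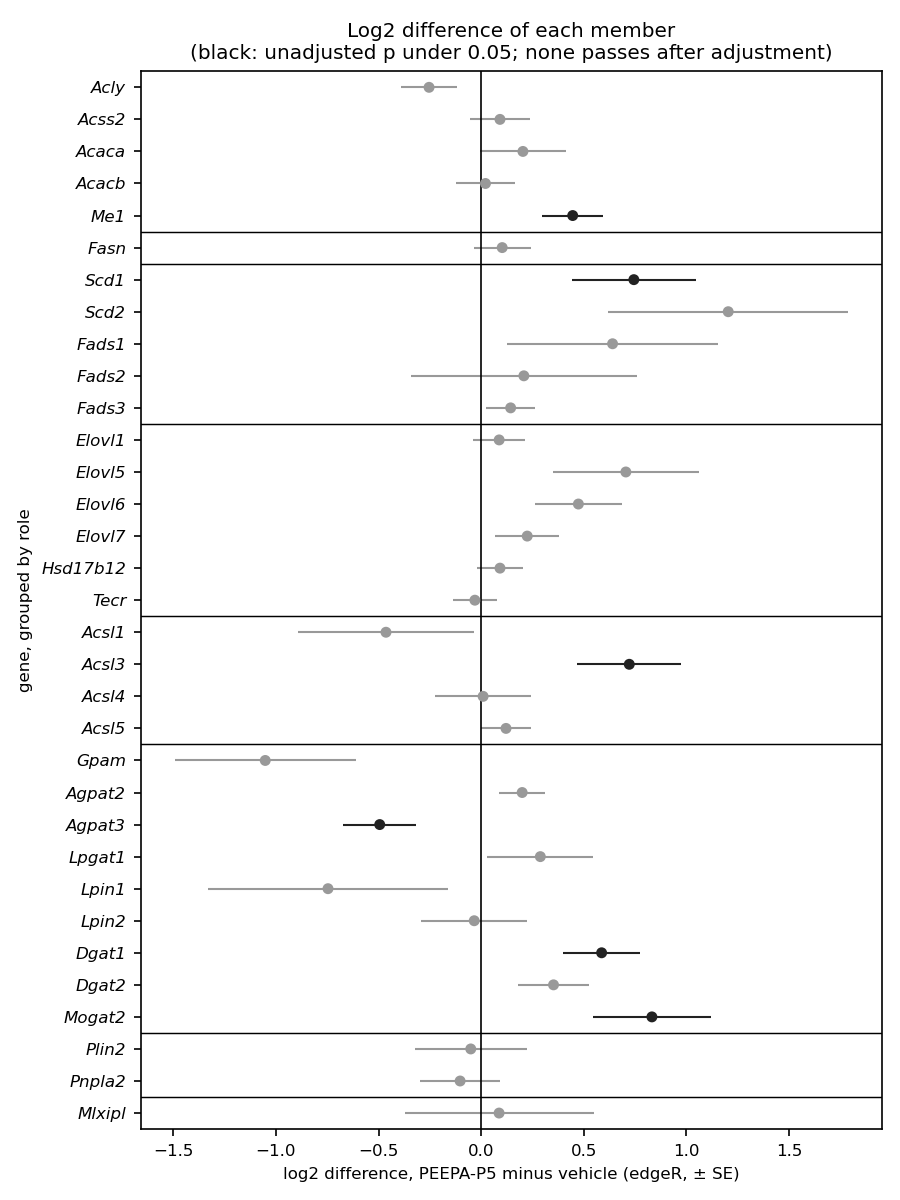
Log2 difference, PEEPA-P5 minus vehicle, of the 33 tested members (points) with the standard error derived from the edgeR F statistic (bars), ordered by role. Black points have an unadjusted p under 0.05. The differences run from -1.05 (Gpam) to 1.203 (Scd2), 24 of 33 lie right of 0, and no adjusted p is under 0.412.

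The libraries were numbered 1 to 3 in both groups, and libraries with the same number deviated from their group means together (correlations of 0.24, 0.34 and 0.23 over 13071 genes), a likeness read from the data, since the labels do not tie the numbers to a cage or day. With the number as a block, 8 members stood higher at an unadjusted p under 0.05 (beside 6.62% of all tested genes) and 2 stood lower (beside 7.06%), and again none passed adjustment, with a smallest adjusted p of 0.364 over all genes in edgeR. The 8 were Scd1, Elovl6, Mogat2, Acsl3, Fads1, Dgat1, Elovl5 and Me1, and the 2 were Gpam and Agpat3. The block was chosen from a likeness in these same values, so its p-values here and below are descriptive and give no separate support. With both libraries numbered 3 left out, 25 of 33 members had a positive log2 difference, beside 6553 of the 13057 genes tested both with and without them. At an unadjusted p under 0.05 in that fit, 8 stood higher (beside 3.47% of 13219 genes) and 0 stood lower (beside 4.48%). Those 8 were Scd1, Elovl6, Mogat2, Acsl3, Elovl5, Scd2, Acaca and Acsl1. Scd1, Elovl5, Elovl6, Acsl3 and Mogat2 were under 0.05 in both of these fits. Me1, Dgat1 and Agpat3 were not under 0.05 without the libraries numbered 3, where their log2 differences were 0.29, 0.35 and -0.27.

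PEEPA-P5 library 1 held the highest value for 13 of 33 members (39.4%, beside 12.5% of all tested genes), PEEPA-P5 library 2 for 3 (9.09%, beside 10.1%) and PEEPA-P5 library 3 for 10 (30.3%, beside 28.6%). Vehicle libraries 1, 2 and 3 held it for 0, 2 and 5 members (0%, 6.06% and 15.2%, beside 8.45%, 17.5% and 22.9%). Vehicle library 3 held the lowest value for 15 of 33 members (45.5%), beside 18.6% of all tested genes, and PEEPA-P5 library 3 for 10 (30.3%, beside 31.4%). The mean log2 CPM of the members, centred over the 6 libraries, was 0.195, 0.183 and -0.160 in PEEPA-P5 libraries and -0.008, -0.024 and -0.187 in vehicle libraries. Over all tested genes the same mean was -0.140 in PEEPA-P5 library 3 and 0.039 in vehicle library 3. The members' mean in PEEPA-P5 library 3 was thus close to that of all genes, and their mean in vehicle library 3 lay below it. The summed level of the 34 members, which is led by a few abundant genes, stood at 4522, 4445 and 4485 CPM in PEEPA-P5 libraries and 3991, 3718 and 3466 CPM in vehicle libraries, without overlap. Taken by number, 11 of 33 members (33.3%) were higher in PEEPA-P5 in all 3 pairs and 3 (9.09%) were lower in all 3, beside 22.4% and 24.5% of all tested genes.

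**Figure D2:**
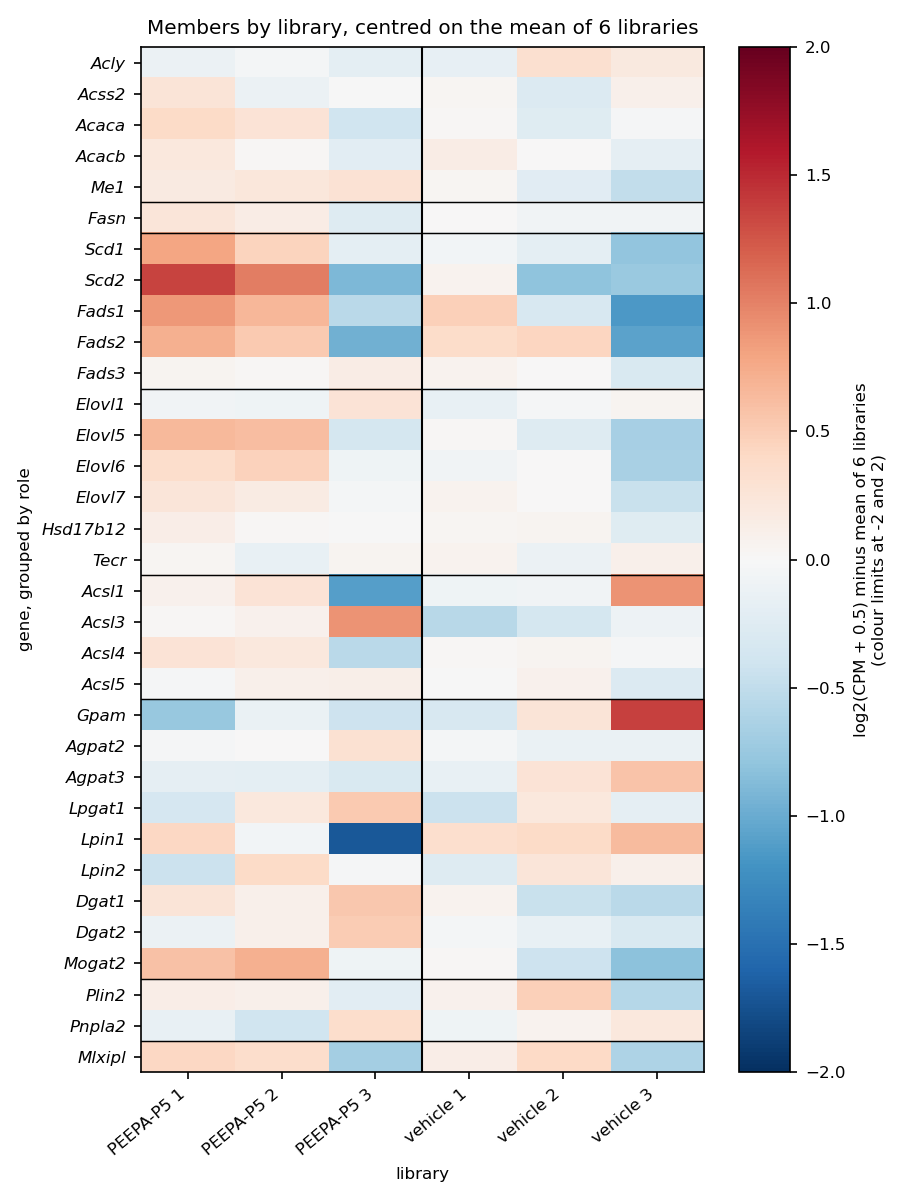
Log2 CPM of each tested member in each library, centred on the member's mean over the 6 libraries (colour), ordered by role, with PEEPA-P5 libraries on the left and vehicle libraries on the right. Scd2, Fads1, Fads2, Elovl5 and Mlxipl lie below their means in both libraries numbered 3, and Gpam is highest in vehicle library 3, at 43.6 CPM.

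Per transcript length, the set was uneven. Me1 led with a mean of 318 TPM (a level scaled to transcript length and library) over the 6 libraries, followed by Tecr at 212 TPM, Agpat2 at 152 TPM, Dgat2 at 137 TPM and Elovl1 at 115 TPM. Fasn stood at 34.1 TPM, rank 12 of 34, Acaca at 3.61 TPM, Lpin1 at 0.715 TPM and Elovl3 at 0.0067 TPM. The 34 members together held 1707, 1722 and 1617 TPM in PEEPA-P5 libraries and 1630, 1676 and 1291 TPM in vehicle libraries, and these ranges overlap. A single gene, Tff1, a surface mucous cell peptide, took 24.5, 23.9 and 28.6% of all TPM in PEEPA-P5 libraries and 24.5, 20.9 and 20.8% in vehicle libraries, so a TPM value also moves with Tff1.

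**Figure D3:**
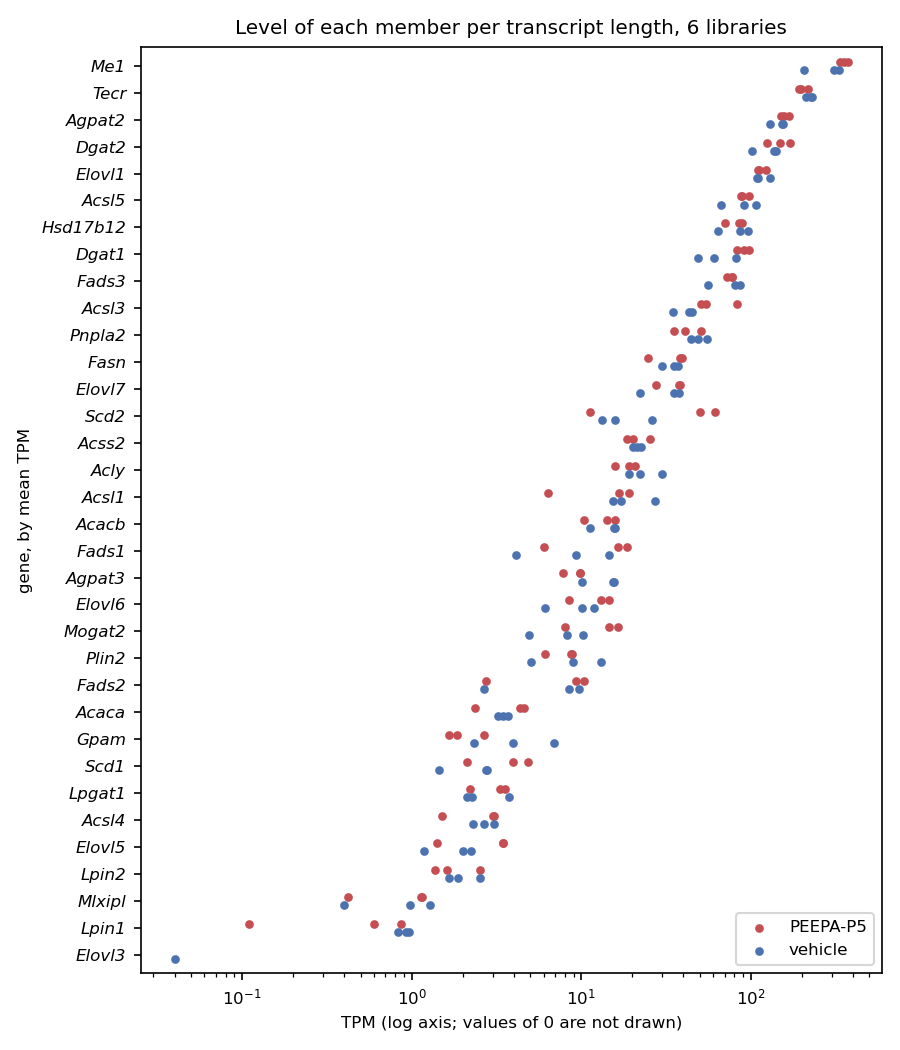
TPM of each member on a log axis, with a point for each PEEPA-P5 library and each vehicle library, ordered by the mean over all 6; values of 0 are not drawn. Me1 leads with a mean of 318 TPM and Elovl3 is last at 0.0067 TPM.

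Promoters of Me1, Acsl3, Agpat2 and Agpat3, members whose groups do not overlap in CPM, and of Fasn are printed for the letters around their start sites. RefSeq promoter windows of assembly GRCm38.p6 ran from 250 bases before to 50 bases after an annotated start. They were matched for 27 of the 34 members, with 35 windows in all, and the authors' counts rest on build mm9. No window was matched for Scd1, Scd2, Elovl3, Fads1, Dgat1, Dgat2 and Mogat2, and the motif shares below leave them out. Dgat1, whose groups also do not overlap, is therefore not printed. Windows are written in the direction of transcription, and capitals mark matches, on either strand, to the CCAAT box (CCAAT) and the GC box (GGGCGG). The E-box (CACGTG) and the core of the sterol regulatory element (TCACNCCAC, with N for any base), the SREBP site, were searched as well and have no match in these 5 windows. Me1 lies on the minus strand at chr9:86695865-86696164, Acsl3 on the plus strand at chr1:78657575-78657874, Agpat2 on the minus strand at chr2:26604368-26604667, Agpat3 on the minus strand at chr10:78351651-78351950 and Fasn on the minus strand at chr11:120824498-120824797.
Me1: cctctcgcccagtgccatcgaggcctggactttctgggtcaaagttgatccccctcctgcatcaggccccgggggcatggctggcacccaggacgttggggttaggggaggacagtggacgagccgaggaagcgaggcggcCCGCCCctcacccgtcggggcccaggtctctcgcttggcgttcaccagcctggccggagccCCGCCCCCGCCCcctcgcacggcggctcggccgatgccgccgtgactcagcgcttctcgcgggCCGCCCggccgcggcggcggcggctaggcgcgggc
Acsl3: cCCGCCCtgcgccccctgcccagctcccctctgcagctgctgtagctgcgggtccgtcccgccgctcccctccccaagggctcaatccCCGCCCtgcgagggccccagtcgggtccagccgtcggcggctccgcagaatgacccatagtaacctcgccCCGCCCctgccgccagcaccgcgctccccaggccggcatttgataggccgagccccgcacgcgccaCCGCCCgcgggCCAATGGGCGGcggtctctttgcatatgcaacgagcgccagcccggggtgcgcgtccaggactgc
Agpat2: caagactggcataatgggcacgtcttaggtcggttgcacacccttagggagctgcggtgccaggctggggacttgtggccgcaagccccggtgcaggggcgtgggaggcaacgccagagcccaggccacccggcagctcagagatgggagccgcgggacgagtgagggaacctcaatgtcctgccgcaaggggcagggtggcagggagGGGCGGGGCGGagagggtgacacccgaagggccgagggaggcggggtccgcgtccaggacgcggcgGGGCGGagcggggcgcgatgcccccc
Agpat3: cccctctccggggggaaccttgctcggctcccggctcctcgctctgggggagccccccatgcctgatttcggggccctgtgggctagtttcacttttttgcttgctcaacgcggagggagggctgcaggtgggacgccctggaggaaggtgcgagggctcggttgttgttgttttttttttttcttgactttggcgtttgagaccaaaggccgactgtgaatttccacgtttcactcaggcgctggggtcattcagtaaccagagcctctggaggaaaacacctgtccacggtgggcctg
Fasn: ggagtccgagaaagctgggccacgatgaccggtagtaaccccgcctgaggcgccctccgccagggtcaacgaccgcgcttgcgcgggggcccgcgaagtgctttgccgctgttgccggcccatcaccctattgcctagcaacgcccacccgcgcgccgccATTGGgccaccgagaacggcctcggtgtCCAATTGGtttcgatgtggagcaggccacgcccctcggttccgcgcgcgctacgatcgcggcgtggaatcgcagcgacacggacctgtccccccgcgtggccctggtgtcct
The printed Me1 window, the more upstream of 2 annotated for this gene, holds 4 GC boxes, at -109, -48, -42 and 16 from the start. The other Me1 window, at chr9:86687228-86687527, holds no GC box and 1 CCAAT box, at -208. The Agpat2 window holds 3 GC boxes. The Acsl3 window holds 5 GC boxes and a CCAAT box at -15. The Fasn window holds 3 CCAAT boxes, at -90, -62 and -59, the last of which overlap each other on opposite strands, and the Agpat3 window holds none of the 4 motifs. Over the 35 member windows, 62.9% held a GC box and 48.6% a CCAAT box, beside 35.7% and 37.4% of 32851 mouse windows. An E-box stood in 11.4% of member windows and 7.15% of all windows. The sterol element core stood in 2 of 35 member windows (5.71%), one of Acsl1 and one of Mlxipl, and in 1.24% of all windows. These shares are not particular to the members. In 18 windows of the sterol synthesis and uptake list described below, they were 83.3% for the GC box, 77.8% for the CCAAT box, 16.7% for the E-box and 5.56% for the sterol element core. A match is a run of letters and not a measured site.

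Among the enzymes that supply acetyl-CoA, malonyl-CoA and NADPH, malic enzyme stood higher in PEEPA-P5 libraries and the others differed little. Me1, cytosolic malic enzyme, had 1081, 1115 and 1168 CPM in PEEPA-P5 libraries, against 980, 814 and 675 CPM in vehicle libraries. Every PEEPA-P5 library lay above every vehicle library, and the spread was wider among vehicle libraries (1121 ± 43.8 CPM in PEEPA-P5 and 823 ± 152 CPM in vehicle, SD, n = 3 each). Its log2 difference was 0.45 ± 0.15 (SE), a fold of 1.36, with an adjusted p of 0.412 in edgeR. In the mouse transcript annotation, 28.6% of the 31-base stretches of Me1 also occur in the predicted gene Gm7049, which has no line in the expression table, so its reads may be shared.

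Acly, ATP citrate lyase, had 80.7, 84.9 and 75.9 CPM in PEEPA-P5 libraries and 78.1, 109 and 101 CPM in vehicle libraries, with a log2 difference of -0.25 ± 0.14 and overlapping groups. Acss2, which makes acetyl-CoA from acetate, differed by 0.09 on the log2 scale, Acaca, the cytosolic acetyl-CoA carboxylase, by 0.20, and Acacb, the mitochondrial form that also gates fatty acid oxidation, by 0.02. The signs of Acss2 and Acacb turned negative on the TPM scale. Without both libraries numbered 3, Acaca stood at a log2 difference of 0.44 with an unadjusted p of 0.015. Of its 31-base stretches, 31.7% are shared with the predicted gene Gm5182, which has no line in the table.

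Fasn, fatty acid synthase, had 371, 349 and 265 CPM in PEEPA-P5 libraries, against 318, 300 and 301 CPM in vehicle libraries. PEEPA-P5 library 3 was the lowest of the 6 and PEEPA-P5 library 1 the highest, so the groups overlapped. Its log2 difference was 0.10 ± 0.14 (SE), and on the TPM scale it was -0.02. Without both libraries numbered 3 the log2 difference was 0.23, with an unadjusted p of 0.066.

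All 5 desaturases had a positive log2 difference under each scaling tried, with a median of 0.64 (0.46 on the log2(TPM + 1) scale), and none had separated groups. Scd1, a stearoyl-CoA desaturase that makes oleate, had 22.6, 17.9 and 11.2 CPM in PEEPA-P5 libraries and 12.4, 11.2 and 7.24 CPM in vehicle libraries, with a log2 difference of 0.74 ± 0.30 and an adjusted p of 0.412 in edgeR. In each numbered pair the PEEPA-P5 library was higher, while PEEPA-P5 library 3 lay at the level of vehicle library 2. With the number as a block the Scd1 difference was 0.73, at an unadjusted p of 0.0024, and without both libraries numbered 3 it was 0.78, at 0.0034.

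Scd2, the stearoyl-CoA desaturase known from brain and from developing tissue in mice, had 324, 258 and 67.6 CPM in PEEPA-P5 libraries and 134, 72.7 and 75.8 CPM in vehicle libraries. PEEPA-P5 libraries 1 and 2 lay above all vehicle libraries, and PEEPA-P5 library 3 was the lowest of the 6. Its log2 difference of 1.203 ± 0.585 (SE) was the largest among members and had an unadjusted p of 0.086. Without both libraries numbered 3 it was 1.50, at an unadjusted p of 0.015, and without PEEPA-P5 library 3 alone it was 1.63. Scd2 was the more abundant form per length in every library, at 12.6, 12.7 and 5.32 times the TPM of Scd1 in PEEPA-P5 libraries and 9.50, 5.70 and 9.24 times in vehicle libraries. Scd1 and Scd2 share 5.84% and 4.83% of their 31-base stretches with Scd3.

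Fads1, the delta-5 desaturase of polyunsaturated fatty acids, had 60.6, 52.1 and 22.3 CPM in PEEPA-P5 libraries and 45.9, 26.2 and 14.5 CPM in vehicle libraries, a log2 difference of 0.64 ± 0.51. Fads2, the delta-6 desaturase, had 27.9, 24.4 and 8.40 CPM in PEEPA-P5 libraries and 22.0, 22.8 and 7.75 CPM in vehicle libraries, a log2 difference of 0.21 ± 0.55. Both genes were lowest in the libraries numbered 3 of both groups, where Gast was also low, and in both the PEEPA-P5 library was the higher of each numbered pair. Whether the low Gast level bears on them was not tested. The sign of Fads2 depends on single libraries: without PEEPA-P5 library 1 it was -0.09. Fads3, a related desaturase that acts on sphingoid bases, had 238, 232 and 252 CPM in PEEPA-P5 libraries and 239, 231 and 184 CPM in vehicle libraries, so that vehicle library 3 alone lay apart. It was the most abundant desaturase per length, at 75.2 TPM, against 29.6 TPM for Scd2, 11.5 TPM for Fads1, 7.19 TPM for Fads2 and 2.98 TPM for Scd1.

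**Figure D4:**
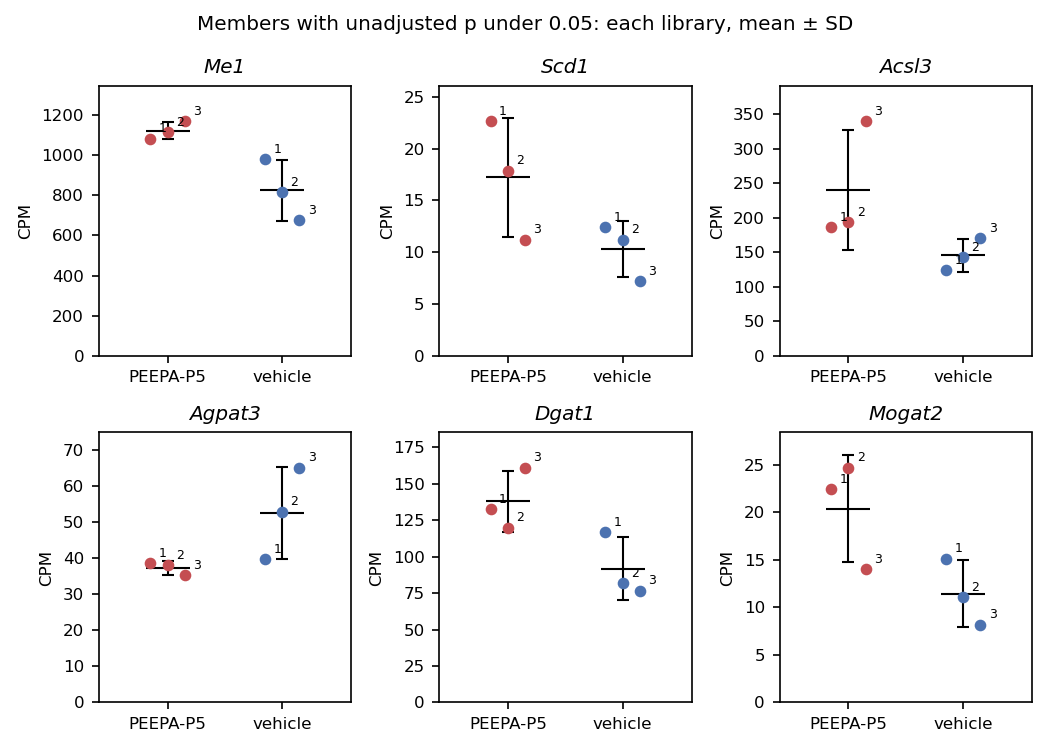
CPM in each library of the 6 members with an unadjusted p under 0.05, PEEPA-P5 libraries left of vehicle libraries; points carry the library number and the bars give the group mean and SD. Me1, Acsl3 and Dgat1 show no overlap, with the PEEPA-P5 libraries above, Agpat3 none with the PEEPA-P5 libraries below, and Scd1 and Mogat2 overlap.

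Of the 6 tested genes of the elongation cycle, 5 had a positive log2 difference, 3 of 6 on the TPM scale, and none had an unadjusted p under 0.05 or separated groups. Elovl6, which extends palmitate toward stearate, had 75.9, 82.3 and 56.2 CPM in PEEPA-P5 libraries and 56.8, 59.7 and 37.9 CPM in vehicle libraries. The PEEPA-P5 library was higher in each numbered pair, while PEEPA-P5 library 3 lay just below vehicle libraries 1 and 2. Its log2 difference was 0.47 ± 0.21 (SE), at an unadjusted p of 0.059 without the block and 0.0022 with it. Elovl5, an elongase of polyunsaturated chains, had 8.91, 8.64 and 4.17 CPM in PEEPA-P5 libraries and 5.58, 4.48 and 3.27 CPM in vehicle libraries, a log2 difference of 0.70 ± 0.36. Its pattern matched that of Elovl6, with a block p of 0.030 before adjustment.

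Elovl7, an elongase of saturated long chains, differed by 0.22 and was higher in PEEPA-P5 in all 3 numbered pairs. Elovl1, which makes very long chains, differed by 0.09, and Hsd17b12, the ketoacyl reductase of the cycle, also by 0.09, and both signs turned negative on the TPM scale. Tecr, the enoyl reductase that closes each cycle, had 203, 178 and 205 CPM in PEEPA-P5 libraries and 206, 182 and 211 CPM in vehicle libraries. Its log2 difference of -0.03 ± 0.11 was far within the spread, and at 212 TPM it was the most abundant enzyme of the cycle. Of its 31-base stretches, 10.2% are shared with other annotated genes.

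Of the 4 long-chain acyl-CoA synthetases, which activate free fatty acids, Acsl3 stood higher in PEEPA-P5 libraries. Acsl3, the form known from nascent lipid droplets, had 186, 194 and 340 CPM in PEEPA-P5 libraries, against 124, 143 and 170 CPM in vehicle libraries. Each PEEPA-P5 library lay above all vehicle libraries, with PEEPA-P5 library 3 far above the rest. The log2 difference was 0.72 ± 0.25 (SE), with an adjusted p of 0.412 in edgeR. Without PEEPA-P5 library 3 it was 0.39, and leaving out both libraries numbered 3 gave 0.52, at an unadjusted p of 0.0022.

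Acsl5, a form abundant in intestinal mucosa and at 90.0 TPM the most abundant synthetase here per length, had 224, 244 and 249 CPM in PEEPA-P5 libraries and 228, 244 and 188 CPM in vehicle libraries, a log2 difference of 0.12 ± 0.12. Acsl1, the main form of liver and fat, had 60.3, 68.1 and 25.9 CPM in PEEPA-P5 libraries and 53.4, 54.0 and 106 CPM in vehicle libraries. The libraries numbered 3 were the lowest and the highest of the 6, and the log2 difference was -0.46 ± 0.43 with them and 0.26 without them. Acsl4, which prefers arachidonate, differed by 0.01, a sign that turned negative on the TPM scale. Genes on the other strand overlap 9.91% of the exon bases of Acsl1 and 8.31% of those of Acsl5. The same holds for 9.12% of those of Acss2 and 4.24% of those of Mlxipl, with lower shares in all other members. The labels do not give the handling of strand, so reads of overlapping genes cannot be told apart.

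Triglyceride assembly itself was mixed, with positive log2 differences in 5 of 9 genes: Gpam, Agpat3 and the lipins had negative values and Dgat1, Dgat2, Mogat2, Agpat2 and Lpgat1 positive ones, under each scaling tried. Gpam, the mitochondrial acyltransferase that begins glycerolipid synthesis, had 9.58, 15.1 and 12.3 CPM in PEEPA-P5 libraries and 13.1, 20.0 and 43.6 CPM in vehicle libraries. Vehicle library 3 stood far above the rest, and the log2 difference of -1.05 ± 0.44 (SE), at an unadjusted p of 0.051, was -0.42 without both libraries numbered 3. Agpat3, an acyltransferase of the second step, had 38.7, 38.1 and 35.2 CPM in PEEPA-P5 libraries, against 39.7, 53.0 and 65.1 CPM in vehicle libraries. The PEEPA-P5 libraries lay together below all vehicle libraries, closest to vehicle library 1. Its log2 difference was -0.49 ± 0.18 (SE), with an adjusted p of 0.412 in edgeR.

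Agpat2, the second-step enzyme whose loss causes lipodystrophy, had 182, 187 and 228 CPM in PEEPA-P5 libraries, against 181, 170 and 169 CPM in vehicle libraries. The groups were separated in CPM, but PEEPA-P5 library 1 and vehicle library 1 lay almost together, and the log2 difference was 0.20 ± 0.11 at an unadjusted p of 0.12. On the TPM scale the groups overlapped, with 151, 156 and 167 TPM in PEEPA-P5 libraries and 153, 155 and 129 TPM in vehicle libraries. Per length Agpat2 was abundant, at 152 TPM, against 11.4 TPM for Agpat3. Lpin1, a phosphatidate phosphatase, had 4.58, 3.15 and 0.672 CPM in PEEPA-P5 libraries and 4.31, 4.48 and 5.38 CPM in vehicle libraries, with PEEPA-P5 library 3 alone far below the others and a log2 difference of -0.75 ± 0.59. Lpin2, its paralog, differed by -0.03, and Lpgat1, an acyltransferase of lysophospholipids, by 0.29 ± 0.26.

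Dgat1, which adds the final acyl chain, had 133, 120 and 161 CPM in PEEPA-P5 libraries, against 117, 82.0 and 76.8 CPM in vehicle libraries. All PEEPA-P5 libraries lay above all vehicle libraries, by a narrow margin over vehicle library 1. The log2 difference was 0.59 ± 0.19 (SE), a fold of 1.50, with an adjusted p of 0.412 in edgeR and the lowest unadjusted p of the members, 0.017. Dgat2, the unrelated enzyme of the same step, had 253, 294 and 391 CPM in PEEPA-P5 libraries and 268, 246 and 221 CPM in vehicle libraries. Here PEEPA-P5 library 1 lay below vehicle library 1, and the log2 difference was 0.35 ± 0.17 at an unadjusted p of 0.080, and 0.09 without both libraries numbered 3. Dgat2 was the more abundant of the pair per length in all libraries, at 1.37, 1.79 and 1.72 times the TPM of Dgat1 in PEEPA-P5 libraries and 1.68, 2.32 and 2.07 times in vehicle libraries.

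Mogat2, the monoacylglycerol acyltransferase of intestinal fat uptake, had 22.5, 24.7 and 14.05 CPM in PEEPA-P5 libraries and 15.1, 11.1 and 8.20 CPM in vehicle libraries. PEEPA-P5 library 3 lay just below vehicle library 1, so the groups overlapped, while the PEEPA-P5 library was higher in each numbered pair. The log2 difference was 0.83 ± 0.29 (SE), with an adjusted p of 0.412 in edgeR, 0.84 with the block and 0.85 without both libraries numbered 3.

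The lipid droplet genes and the transcription factor of the set had log2 differences smaller than their standard errors. Pnpla2, the lipase that begins triglyceride breakdown, had 98.7, 83.3 and 141 CPM in PEEPA-P5 libraries and 104, 115 and 127 CPM in vehicle libraries, a log2 difference of -0.10 ± 0.20. Plin2, the droplet coat protein, differed by -0.05 ± 0.27. Mlxipl had 4.16, 3.97 and 1.68 CPM in PEEPA-P5 libraries and 3.34, 4.10 and 1.79 CPM in vehicle libraries, so it was low in both libraries numbered 3 and its log2 difference was 0.09 ± 0.46. At 0.893 TPM it was among the 3 least abundant members.

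**Figure D5:**
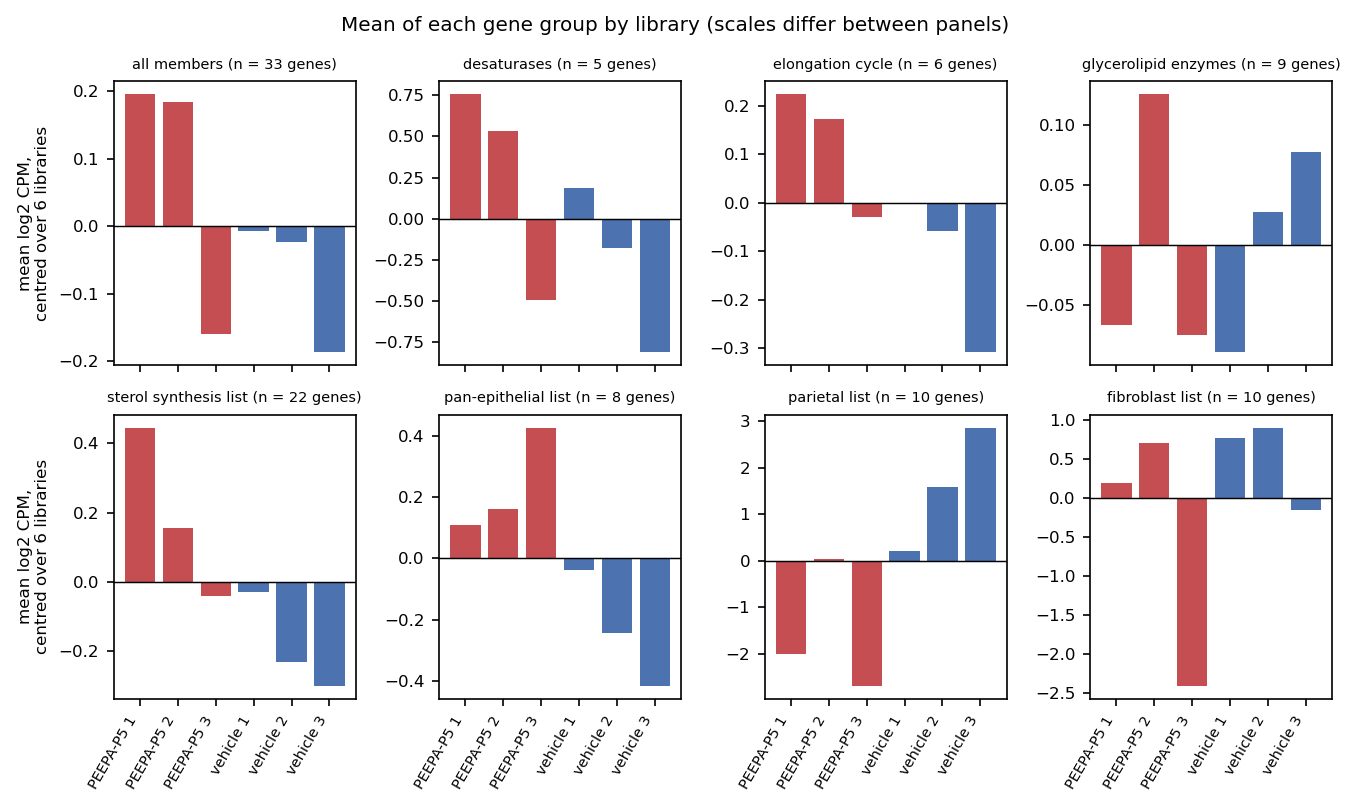
Mean log2 CPM of gene groups in each library, centred over the 6 libraries, with PEEPA-P5 libraries left of vehicle libraries; the vertical scales differ between panels. The desaturases are lowest in the libraries numbered 3 (-0.492 in PEEPA-P5 and -0.812 in vehicle), the sterol synthesis list is highest in PEEPA-P5 library 1 (0.444), and the parietal list is highest in vehicle library 3 (2.86).

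The regulators of lipogenesis gave 13 positive log2 differences among 17 tested genes, with a median of 0.11, but 8 of 17 on the log2(TPM + 1) scale. At an unadjusted p under 0.05, 3 stood higher and 1 lower. Over all tested genes, 5.92% stood higher and 6.14% lower at that level, the background for this and each later list. Without both libraries numbered 3, those background shares were 3.47% and 4.48%. Mid1ip1, a partner that activates acetyl-CoA carboxylase, had 281, 234 and 280 CPM in PEEPA-P5 libraries, against 202, 186 and 183 CPM in vehicle libraries, without overlap, and a log2 difference of 0.48 ± 0.11 (SE). The other genes under 0.05 were Pparg, the master regulator of fat cells, at 0.41, Insig2, which holds SREBP in the endoplasmic reticulum, at 0.54, and Mbtps1, the site-1 protease that cleaves SREBP, at -0.31. Srebf1 had 112, 103 and 78.5 CPM in PEEPA-P5 libraries and 96.9, 89.7 and 78.8 CPM in vehicle libraries, with overlap and a log2 difference of 0.15 ± 0.15. Insig1, an SREBP target that feeds back on it, had 161, 141 and 74.1 CPM in PEEPA-P5 libraries and 106, 114 and 51.2 CPM in vehicle libraries. Its libraries numbered 3 were again the low ones, and its log2 difference of 0.47 ± 0.39 had an unadjusted p of 0.27 without the block and 0.0054 with it. Srebf2, the regulator of sterol synthesis, stood at 0.18, Mlx, the partner of ChREBP, at 0.28, and Nr1h3, the oxysterol receptor LXR alpha, at 0.24, all with an unadjusted p above 0.05. When both libraries numbered 3 were left out, 12 of 17 were positive, with 2 higher and 0 lower at an unadjusted p under 0.05.

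In the sterol synthesis and uptake list, whose genes answer to SREBP-2, all 22 tested genes had a positive log2 difference, and 11 had an unadjusted p under 0.05, with a median of 0.38. None passed adjustment in edgeR, as for all genes. Hmgcs1, which makes HMG-CoA, had 665, 479 and 389 CPM in PEEPA-P5 libraries and 379, 265 and 281 CPM in vehicle libraries, a log2 difference of 0.73 ± 0.23. Cyp51, the lanosterol demethylase, stood at 0.47, Idi1, the isopentenyl isomerase, at 0.64, Mvd, the mevalonate decarboxylase, at 0.85, Ebp, the sterol isomerase, at 0.40, and Msmo1, the methylsterol oxidase, at 0.54. The centred list mean was 0.444, 0.155 and -0.041 in PEEPA-P5 libraries and -0.028, -0.230 and -0.299 in vehicle libraries. Without both libraries numbered 3, 21 of 23 were positive and 13 had an unadjusted p under 0.05, and on the log2(TPM + 1) scale 21 of 22 were positive.

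Of 24 tested other enzymes of fatty acid and glycerolipid synthesis, 17 had a positive log2 difference (13 of 24 on the log2(TPM + 1) scale) and 1 an unadjusted p under 0.05, with a median of 0.11. That gene, Slc25a1, the carrier that exports citrate from mitochondria for acetyl-CoA supply, had 380, 286 and 378 CPM in PEEPA-P5 libraries and 312, 236 and 221 CPM in vehicle libraries, a log2 difference of 0.44 ± 0.17. The list again had 17 of 24 positive and 1 under 0.05 without both libraries numbered 3. Fatty acid oxidation, the opposing pathway, had 15 of 26 positive and a median of 0.03, but 6 of 26 positive on the log2(TPM + 1) scale, with a median of -0.08, and 8 of 26 positive without both libraries numbered 3, with a median of -0.06. Eci1 and Eci2, isomerases for unsaturated chains, stood at -0.58 and -0.57, and Acaa1a, a peroxisomal thiolase, at 0.42, all with an unadjusted p under 0.05. Those counts, 1 higher and 2 lower, were 0 higher and 3 lower without both libraries numbered 3.

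The list for lipid droplets, lipolysis and fatty acid transport had 12 of 21 negative log2 differences (15 of 21 on the log2(TPM + 1) scale), a median of -0.17, and 4 lower and 1 higher at an unadjusted p under 0.05. In the fit without both libraries numbered 3, 0 were lower and 1 higher at that level, 8 of 21 were positive, and the median was -0.10. Cd36, the fatty acid transporter, had 1.27, 5.08 and 0.538 CPM in PEEPA-P5 libraries, against 6.56, 27.5 and 46.0 CPM in vehicle libraries, a log2 difference of -3.52 ± 1.01. Fabp3, a fatty acid binding protein of muscle, stood at -3.42, Plin4, a droplet coat protein of fat cells, at -2.10, Slc27a1, a fatty acid transporter, at -0.61, and Abhd5, the coactivator of the lipase ATGL, at 0.43. The centred mean log2 CPM of the parietal list was -2.01, 0.036 and -2.68 in PEEPA-P5 libraries and 0.213, 1.59 and 2.86 in vehicle libraries, the same order of libraries as for Cd36.

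Markers of other cell types are described by the sign of their log2 difference. The directions given here for all 6 libraries held under each scaling tried, with 1 exception. The 1 positive macrophage marker turned negative with upper-quartile factors, total counts and TPM. All 10 parietal markers had a negative log2 difference, 8 at an unadjusted p under 0.05 (3 without both libraries numbered 3, with a median of -2.13, beside -3.75 with them), and their summed level was 223 to 945 CPM in PEEPA-P5 libraries and 1001 to 7202 CPM in vehicle libraries. All 5 chief cell markers were negative as well, 4 at an unadjusted p under 0.05 (0 without both libraries numbered 3), with sums of 2724 to 10220 CPM in PEEPA-P5 libraries and 9496 to 89724 CPM in vehicle libraries. All 8 pan-epithelial markers were positive, 5 at an unadjusted p under 0.05 (1 without both libraries numbered 3), with a median log2 difference of 0.35, beside 0.12 for the members (0.23 beside 0.13 without both libraries numbered 3), and sums of 19303 to 23216 CPM in PEEPA-P5 libraries and 14216 to 18143 CPM in vehicle libraries. Of 8 surface mucous markers 7 were positive, and all 7 tested squamous markers of the forestomach were positive, although Krt5 and Krt14, which define squamous epithelium, had at most 10 counts in any library. Of 8 tested adipocyte markers, 1 was positive, their summed level was 66.3 to 103 CPM in PEEPA-P5 libraries and 97.5 to 218 CPM in vehicle libraries, and Adipoq, the defining fat cell gene, had at most 10 counts in any library. All 10 fibroblast, 9 tested endothelial and 10 smooth muscle markers were negative, as were 8 of 9 macrophage markers, with PEEPA-P5 library 3 lowest of the 6 for 10, 9, 9 and 8 of them. At an unadjusted p under 0.05, 0 fibroblast, 1 endothelial, 0 smooth muscle and 0 macrophage markers stood lower (3, 1, 0 and 0 without both libraries numbered 3). Enterocyte markers were split, with 5 of 8 positive, and Sis and Lct had at most 10 counts in any library. The positive counts without both libraries numbered 3 were 7 of 8 for surface mucous, 7 of 7 for squamous, 2 of 8 for adipocyte, 1 of 10 for fibroblast, 2 of 9 for endothelial, 0 of 10 for smooth muscle, 3 of 9 for macrophage and 5 of 8 for enterocyte markers. The part of these cell markers in the members' differences was not tested.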

How the data were processed

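RNA sequencing of antrum epithelium from 6 libraries was used, 3 per group. The submitters' processing notes list Bowtie2 2.2.5 and RSEM 1.2.12, with build mm9; settings and strand use were not given in the sources used here. For each library the authors deposited, per the file headers, 3 values for each gene: expected counts, FPKM and TPM. The expected counts deposited by the authors are unscaled read estimates from RSEM, of which 9.82% were not whole, and were rounded. The authors' TPM values have a constant library sum, and their FPKM values, deposited beside them, gave no number here.

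The count test was edgeR's robust quasi-likelihood fit (edgeR 4.0.16, R 4.3.3, TMM factors, filterByExpr, no covariates) on 13071 of 17256 genes, with p-values adjusted over all of these by the Benjamini-Hochberg method. The SE of a log2 difference was derived from that test, as its absolute value divided by the square root of the F statistic. CPM uses TMM-scaled totals. DESeq2 1.42.0, limma 3.58.1 (voom, and log2(TPM + 1) or log2(TPM + 0.1)), other scalings, other filters, the replicate block and left-out libraries were alternatives. The fits were also run on simulated counts with known changes, drawn with the same spread for every gene and no outlying library. Those runs checked the code and do not show how well changes would be found in these data. No pair of libraries agreed within sampling noise (the lowest chi-square divided by its degrees of freedom was 13.3), and no molecular identifiers are described. With 3 libraries against 3, an exact permutation test of a single value cannot go below 0.1, so none was used.

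The replicate numbers come from the labels. Libraries of the same number deviated together from their group means, with correlations of 0.24, 0.34 and 0.23, all above 0.1 and the highest for each library, so the block was run beside the unblocked fit. PEEPA-P5 library 1 also correlated with vehicle library 2, at 0.168.

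The 34 members, their roles, 5 pathway lists and 11 cell lists were chosen with earlier results of these data known. Per-library values are given for members with an unadjusted p under 0.05 and for the most abundant per role, and for others beside them. In each pathway list, up to 6 genes with the smallest unadjusted p under 0.05 are named, with Srebf1, Srebf2, Insig1, Nr1h3 and Mlx. Sequence shared between transcripts was counted in stretches of 31 bases in a GENCODE mouse annotation.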

Additional observations from a re-analysis of the deposited data

How the results depend on the processing

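No member passed an adjusted p of 0.05 under any alternative run. Over all genes, DESeq2 called 101, and leaving out 1 library in turn called 0 to 1, the 1 coming without vehicle 1. The count of members higher at an unadjusted p under 0.05 was 5 as reported, 2 with total counts and no scaling factors, 2 on log2(TPM + 1), 2 on log2(TPM + 0.1), 8 with the replicate block and 8 without both libraries numbered 3, and 1 to 10 when leaving out 1 library, lowest without vehicle 2 and highest without PEEPA-P5 3. Over all genes, those under 0.05 in either direction numbered 1576 as reported, 1328, 1303, 1204, 1788 and 1051 under the first 5 of these settings in turn, 717 without vehicle 2 and 1171 without PEEPA-P5 3. The count lower was 1 as reported, 2 with the replicate block and 0 without both libraries numbered 3, beside 6.14%, 7.06% and 4.48% of all genes. For the count higher, those shares were 5.92%, 6.62% and 3.47%. The count lower was 2 with DESeq2, upper-quartile factors, total counts, log2(TPM + 1) and log2(TPM + 0.1), and 0 to 3 when leaving out 1 library. Over all genes, 1713 with DESeq2 and 1496 with upper-quartile factors lay under 0.05 in either direction. Outside the first 3 settings the counts over all genes are not split by direction, so those member counts have no like background. The members' median log2 difference was 0.12, with 0.03 to 0.13 over the other settings and 0.08 to 0.19 when leaving out 1 library. The median of all genes was -0.10 on log2(TPM + 0.1) and -0.0047 as reported.

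Signs turned for these members. On upper-quartile factors, total counts, log2(TPM + 1) and log2(TPM + 0.1), Acacb was -0.023, -0.058, -0.079 and -0.084, and Acsl4 was -0.030, -0.058, -0.087 and -0.13. On log2(TPM + 1) and log2(TPM + 0.1), Fasn was -0.021 and -0.022, Acss2 -0.0088 and -0.0096, Elovl1 -0.0136 and -0.0137 (-7e-04 on total counts) and Hsd17b12 -0.0059 and -0.0058. Acsl4 was -0.023 with limma-voom and -0.032 with the block, and Plin2 0.0014 with the block. Without both libraries numbered 3, Acsl1 was 0.26, Acsl5 -0.0042 and Lpin2 0.024. Leaving out 1 library gave both signs for Acacb (-0.088 to 0.13), Acss2 (-0.025 to 0.18), Elovl1 (-0.034 to 0.15), Fads2 (-0.14 to 0.58), Acsl4 (-0.14 to 0.24), Lpin2 (-0.27 to 0.16), Plin2 (-0.29 to 0.22), Pnpla2 (-0.34 to 0.055), Mlxipl (-0.18 to 0.40) and Tecr (-0.094 to 0.036). The cause was not tested. Me1 kept a positive log2 difference of 0.32 to 0.59, Acsl3 of 0.39 to 0.88 and Dgat1 of 0.46 to 0.80 when leaving out 1 library. Scd1 (0.50 to 0.98) and Mogat2 (0.64 to 1.08) also stayed positive, and Agpat3 (-0.66 to -0.31) negative. The unadjusted edgeR p was under 0.05 in 5 of 6 such cases for Me1 and in 4 each for Acsl3 and Dgat1. It was so in 2 each for Scd1 and Mogat2 and in 1 for Agpat3. With all 6 libraries, the Me1 p was 0.073 in edgeR with total counts and 0.090 in limma on log2(TPM + 1).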
